A study of Homo sapiens with 39 samples.

Results

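The SLC30 genes encode the ZnT proteins, transporters most of which move zinc out of the cytosol. The members were taken by name as the rows of SLC30A1 to SLC30A10 in the count table, 10 of its 57773 genes. Of these, 7 passed the filter on low counts that left 14460 genes for testing, and SLC30A4, SLC30A8 and SLC30A10 did not. Transcripts were counted by RNA sequencing in JJN3, a human multiple myeloma cell line grown in RPMI with serum, so all values come from a single line. The 13 groups of 3 libraries are GSK-J4 at 1, 3, 6 and 24 h, ZnSO4 at 1, 3, 6 and 24 h, the DMSO vehicle at 1, 3, 6 and 24 h, and cells at the start of the experiment, labelled T0. GSK-J4 is a cell-permeable inhibitor of the KDM6 histone demethylases, and ZnSO4 supplies zinc ions. Neither dose is stated in the labels. GSK-J4 and ZnSO4 libraries of a given time are set against the same DMSO libraries, so the paired results below share their controls. Whether the 3 libraries of a group came from separate cultures is not stated, so each p-value reflects no more than the scatter among libraries, part of which may be technical.

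Cells hold free zinc in the cytosol at very low levels. When zinc rises, the transcription factor MTF1 binds metal response elements in DNA and raises the metallothioneins, small proteins that hold zinc, together with SLC30A1 in mammals. SLC30A1 acts at the cell surface, whereas most other ZnT proteins load zinc into vesicles or the Golgi apparatus, and the SLC39 (ZIP) proteins carry zinc the other way, into the cytosol. A plasma cell line such as JJN3 has a large secretory pathway, where several enzymes need zinc.

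Libraries held 4347745 to 10695671 counts (median 6010529), and levels below are TMM-scaled CPM, counts relative to the size of the library, with errors as SD over 3 libraries. All 10 plasma cell and myeloma markers passed the filter, with a summed level of 11000 to 14610 CPM, while T cell, myeloid, hepatocyte and pancreatic islet markers each summed to at most 2.51 CPM and INS and IAPP had 0 counts. The 9 libraries of 24 h stood apart from the 30 earlier ones on the first principal component, which held 54.4% of the variance. The mitochondrial share of counts was 4.38% to 5.54% in the 24 h libraries and 2.92% to 3.90% in the earlier ones. The 5 epithelial markers, mostly EPCAM, summed to 62.9 to 80.5 CPM at 24 h and to 39.96 to 54.1 CPM before, with KRT19 at 4 counts in all libraries together. The 5 fibroblast markers, mostly COL1A1, COL1A2 and COL3A1, summed to 14.4 to 90.8 CPM at 24 h and to 9.34 to 80.6 CPM before. Within GSK-J4 the fibroblast sum was 46.6 to 90.8 CPM at 24 h, against 14.2 to 37.5 CPM at 1 to 6 h, without overlap, whereas in DMSO it was 14.4 to 58.8 CPM at 24 h, against 19.5 to 80.6 CPM at 1 to 6 h. In ZnSO4 the fibroblast sum was 40.4 to 53.3 CPM at 24 h. That lies above 3 h (12.8 to 29.7 CPM) and 6 h (9.34 to 22.6 CPM) and overlaps 1 h (22.8 to 43.3 CPM). The mitochondrial share, the epithelial sum and, in GSK-J4 and apart from 1 h in ZnSO4, the fibroblast sum move with the 24 h results given below. Their part in those results was not tested. T0 replicate 3 stood apart from its group, with a chi-squared per gene of 7.38 and 5.25 against T0 replicates 1 and 2, whereas every other pair of replicates was at or below 3.33. SLC30A1, SLC30A5, SLC30A6 and SLC30A7 stayed called in DMSO at 24 h against T0 without any 1 of the T0 libraries. In bulk RNA a change in the make-up of the culture and a change per cell cannot be told apart.

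Of the family, 5 members carried nearly all of its transcripts, and which of them led differed between groups. Per kb of exon, the T0 cells held 14.1 ± 0.22 CPM per kb of SLC30A5, 10.5 ± 1.40 of SLC30A6, 9.48 ± 0.37 of SLC30A1, 9.46 ± 0.56 of SLC30A7 and 8.31 ± 0.17 of SLC30A9. SLC30A3 was at 0.666 ± 0.20 CPM per kb, and SLC30A2, SLC30A4, SLC30A8 and SLC30A10 were each at or below 0.0385 CPM per kb. SLC30A1 thus made up 18.02% of the family's summed level at T0. Its share of that sum was 42.4%, 59.2%, 47.7% and 53.3% after 1, 3, 6 and 24 h of GSK-J4. It was 60.7%, 69.4%, 50.9% and 80.2% after 1, 3, 6 and 24 h of ZnSO4. In DMSO the share was 22.2%, 22.5%, 20.7% and 44.4% at the same times. SLC30A1 thus led in the vehicle too at 24 h, at 20.8 ± 0.64 CPM per kb, with SLC30A9 next at 8.89 ± 0.80 CPM per kb. The sum over the 10 members reached 151 ± 9.8 CPM per kb in ZnSO4 at 3 h, against 57.3 ± 1.7 CPM per kb in DMSO at 3 h. Exon lengths are those of GENCODE 29, which may differ from the annotation used for counting.

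**Figure D1:**
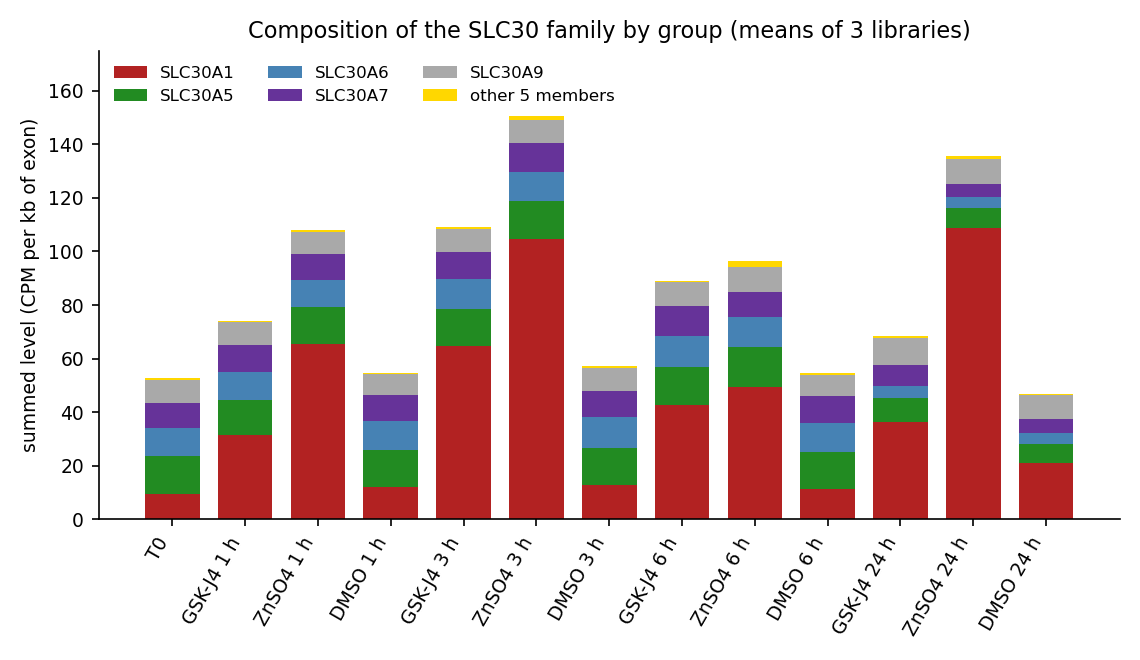
Summed level of the 10 SLC30 members in CPM per kb of exon (vertical axis) in each of the 13 groups, as stacked means of 3 libraries with no error bars. The SLC30A1 segment grows in the GSK-J4 and ZnSO4 groups, reaching 80.2% of the sum in ZnSO4 at 24 h, while the SLC30A5, SLC30A6 and SLC30A7 segments are lower in the groups of 24 h.

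Promoters are shown because metal response elements are the known link between zinc and SLC30A1. They are not those of all members that rose, since SLC30A5, SLC30A7 and SLC30A9 were also called higher in GSK-J4 at 24 h. The 250 bases before the RefSeq start site follow for SLC30A1 and SLC30A2, for the metallothionein MT1X, and for the Golgi member SLC30A7, which held no match. They are RefSeq sequences on GRCh38.p14, 5′ to 3′ on the gene's strand, and capitals mark matches to TGCACNC or TGCGCNC, the core of the element, on either strand.
SLC30A1, chr1:211579162-211579411, strand -: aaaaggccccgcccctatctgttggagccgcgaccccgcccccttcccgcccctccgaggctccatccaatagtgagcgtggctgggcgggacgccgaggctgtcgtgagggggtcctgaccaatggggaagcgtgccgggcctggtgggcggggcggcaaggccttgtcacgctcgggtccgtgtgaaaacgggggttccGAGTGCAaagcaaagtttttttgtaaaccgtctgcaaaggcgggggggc
SLC30A2, chr1:26046119-26046368, strand -: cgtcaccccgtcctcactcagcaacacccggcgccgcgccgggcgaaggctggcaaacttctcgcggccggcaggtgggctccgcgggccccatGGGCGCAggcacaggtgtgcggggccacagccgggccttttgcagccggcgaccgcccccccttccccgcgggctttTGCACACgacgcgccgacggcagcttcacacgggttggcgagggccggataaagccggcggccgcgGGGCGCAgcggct
MT1X, chr16:56682220-56682469, strand +: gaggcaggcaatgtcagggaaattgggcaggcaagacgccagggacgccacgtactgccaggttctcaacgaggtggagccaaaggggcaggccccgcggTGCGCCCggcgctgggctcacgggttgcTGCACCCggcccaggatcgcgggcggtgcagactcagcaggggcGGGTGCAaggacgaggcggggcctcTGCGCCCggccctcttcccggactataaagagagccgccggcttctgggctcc
SLC30A7, chr1:100895840-100896089, strand +: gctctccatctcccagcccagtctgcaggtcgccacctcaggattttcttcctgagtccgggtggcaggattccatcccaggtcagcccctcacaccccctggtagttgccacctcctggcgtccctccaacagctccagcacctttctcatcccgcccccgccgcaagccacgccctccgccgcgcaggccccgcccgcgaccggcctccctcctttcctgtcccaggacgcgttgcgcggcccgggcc

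The search covered these 250 bases and the next 50 after the start site. SLC30A1 held 2 matches, the shown one at -49 and another at 25 past the start, SLC30A2 held 3 and MT1X held 4. SLC30A3 held 2 in one of its windows and 1 in the other, SLC30A4 and SLC30A6 held 1 each, and SLC30A5, SLC30A7, SLC30A9 and SLC30A10 held 0. No count of matches is given for SLC30A8. Of all 35116 promoter windows of this length, 29.6% held at least 1 match, 8.60% at least 2, 2.30% at least 3 and 0.601% at least 4. The windows of SLC30A1 and SLC30A2 are 68.0% and 74.7% G or C. A match is a description of letters, not a measured binding site. SLC30A5, SLC30A7 and SLC30A9, with 0 matches, were also called higher in GSK-J4 at 24 h. Whether matches have a part in any change was not tested.

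SLC30A1 (ENSG00000170385), which exports zinc across the cell surface, rose within 1 h of GSK-J4 and stayed higher through 24 h. At 1 h it measured 163, 187 and 166 CPM in the GSK-J4 libraries, against 59.1, 68.4 and 72.5 CPM in the DMSO libraries. At 3 h it measured 368, 341 and 354 CPM in GSK-J4, against 64.0, 75.7 and 71.6 CPM in DMSO. The 3 h GSK-J4 libraries are the highest of that treatment, and no GSK-J4 library overlaps DMSO at either time. At 6 h it measured 228, 230 and 240 CPM in GSK-J4, against 58.8, 53.2 and 73.0 CPM in DMSO. At 24 h it measured 204, 198 and 195 CPM in GSK-J4, against 117, 110 and 115 CPM in DMSO. At 24 h DMSO is higher than at 6 h and GSK-J4 lower, and the libraries still do not overlap. The log2 fold changes of GSK-J4 over DMSO were 1.38 ± 0.08 (SE), 2.33 ± 0.07, 1.91 ± 0.08 and 0.81 ± 0.07 at 1, 3, 6 and 24 h. In linear terms these are 2.60-fold, 5.04-fold, 3.77-fold and 1.75-fold. Adjusted p-values from edgeR's quasi-likelihood test with Benjamini-Hochberg adjustment over all 14460 genes were 7.3e-22, 9.3e-36, 2.1e-30 and 2.3e-14.

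ZnSO4 raised SLC30A1 at every time, with a lower level at 6 h than at 1, 3 or 24 h. At 1 h it measured 360, 358 and 358 CPM in the ZnSO4 libraries, against the 59.1 to 72.5 CPM of DMSO. At 3 h it measured 515, 587 and 617 CPM in ZnSO4, against 64.0 to 75.7 CPM in DMSO. At 6 h it measured 249, 265 and 293 CPM in ZnSO4, against 53.2 to 73.0 CPM in DMSO. Thus the 3 libraries of 6 h lie below all those of 1 h and 3 h, yet far above DMSO. At 24 h it measured 561, 599 and 627 CPM in ZnSO4, against 110 to 117 CPM in DMSO. The log2 fold changes of ZnSO4 over DMSO were 2.44 ± 0.07 (SE), 3.03 ± 0.07, 2.13 ± 0.08 and 2.39 ± 0.07 at 1, 3, 6 and 24 h, or 5.42-fold, 8.16-fold, 4.37-fold and 5.23-fold. The adjusted p-values of edgeR's quasi-likelihood test were 9.9e-37, 2.7e-42, 7.5e-33 and 3.5e-38.

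**Figure D2:**
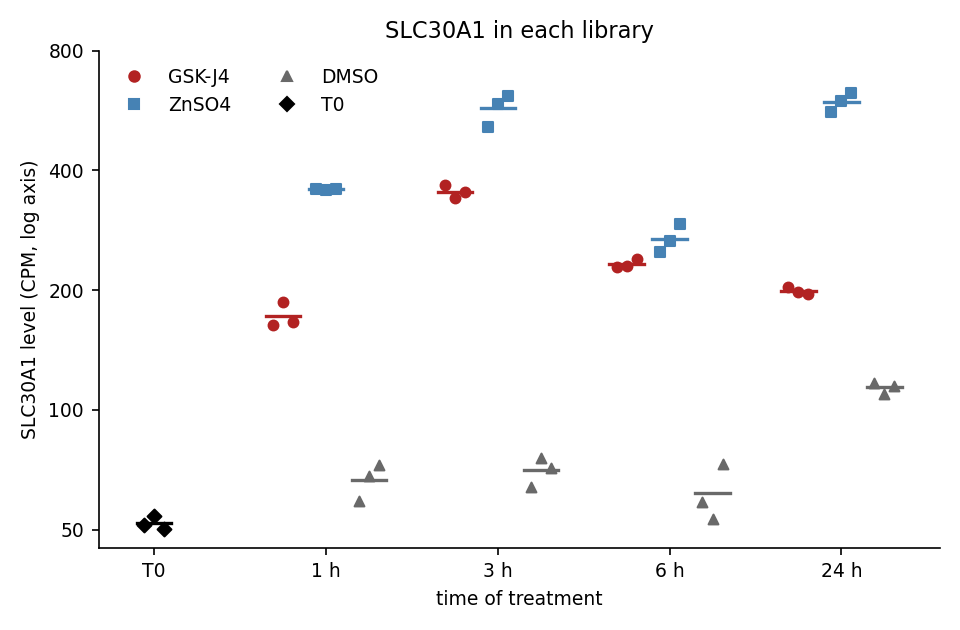
SLC30A1 level in CPM (vertical log axis) in each library at T0 and after 1, 3, 6 and 24 h of GSK-J4, ZnSO4 or DMSO, with a bar at the mean of 3 libraries. GSK-J4 libraries range from 163 to 368 CPM and ZnSO4 libraries from 249 to 627 CPM, all above the DMSO libraries, whose highest value is 117 CPM at 24 h.

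Ordered by mean level, the 13 groups ran from ZnSO4 at 24 h (596 ± 34 CPM) through ZnSO4 at 3 h (573 ± 52), ZnSO4 at 1 h (359 ± 1.2), GSK-J4 at 3 h (354 ± 14), ZnSO4 at 6 h (269 ± 22), GSK-J4 at 6 h (233 ± 6.0), GSK-J4 at 24 h (199 ± 4.5), GSK-J4 at 1 h (172 ± 13) and DMSO at 24 h (114 ± 3.5) to DMSO at 3, 1 and 6 h (70.4 ± 5.9, 66.6 ± 6.9 and 61.7 ± 10.2) and T0 (51.9 ± 2.0). Neighbours whose libraries overlap are ZnSO4 at 24 and 3 h, ZnSO4 at 1 h with GSK-J4 at 3 h, and the DMSO groups of 3, 1 and 6 h with each other and, for 6 h, with T0.

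Set directly against each other, GSK-J4 gave less SLC30A1 than ZnSO4 at 1, 3 and 24 h. The log2 fold changes of GSK-J4 over ZnSO4 were -1.06 ± 0.07 (SE), -0.70 ± 0.06 and -1.58 ± 0.07 at those times, with adjusted p of 1.3e-19, 3.5e-14 and 1.2e-28 by edgeR's quasi-likelihood test. At 6 h the difference was -0.21 ± 0.07 (95% interval -0.35 to -0.08, adjusted p = 0.018 by edgeR). That call was lost without the third ZnSO4 library (log2 fold change -0.15, adjusted p = 0.20), without the first (-0.20, 0.072) or the second GSK-J4 library (-0.21, 0.062), and with no filter on low counts (-0.19, 0.053). With doses not given, these are differences between 2 exposures of unknown strength.

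The size of the SLC30A1 response changed between neighbouring times, tested as a change of each compound's log2 fold change over DMSO. The GSK-J4 effect grew by 0.95 ± 0.11 (SE) between 1 and 3 h (adjusted p = 2.5e-09, edgeR) and fell by 1.10 ± 0.11 between 6 and 24 h (adjusted p = 4.3e-12, edgeR). From 6 to 24 h mean SLC30A1 went from 233 to 199 CPM in GSK-J4 and from 61.7 to 114 CPM in DMSO, so the vehicle's rise is part of that fall. Between 3 and 6 h it fell by 0.42 ± 0.11 (adjusted p = 0.013, edgeR). That call was lost without the first DMSO library of 3 h (-0.35, adjusted p = 0.093) or the third of 6 h (-0.28, adjusted p = 0.19). The ZnSO4 effect grew by 0.59 ± 0.11 between 1 and 3 h (adjusted p = 9.7e-05, edgeR) and fell by 0.90 ± 0.11 between 3 and 6 h (adjusted p = 7.8e-09, edgeR). From 6 to 24 h its change was 0.26 ± 0.10 (95% interval 0.06 to 0.47), which did not pass (adjusted p = 0.38, edgeR). Over the 3 changes in order of time, 1, 1 and 2 of 7 members were called for GSK-J4, with 0.588%, 3.67% and 5.75% of all genes called, and 1, 1 and 0 for ZnSO4, with 2.77%, 2.18% and 0.408%. Behind that count of 0, 2 members had an unadjusted p under 0.05, and DESeq2 also called 0.

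SLC30A1 also differed between vehicle and start. It measured 51.5, 54.0 and 50.1 CPM at T0, below every DMSO library of 1, 3 and 24 h. DMSO at 24 h was 1.13 ± 0.08 higher than T0 on the log2 scale (2.19-fold, adjusted p = 3.4e-19, edgeR). DMSO at 1, 3 and 6 h stood at 0.35 ± 0.09, 0.43 ± 0.09 and 0.25 ± 0.09 over T0, with adjusted p of 0.21, 0.024 and 0.21 (edgeR's quasi-likelihood test). The 3 h call was lost without T0 replicate 3 (0.41, adjusted p = 0.083) and without DMSO replicate 2 (0.38, adjusted p = 0.20) or 3 (0.42, adjusted p = 0.11), and in a fit of only these groups (0.44, adjusted p = 0.60). The 1 h difference did pass without DMSO replicate 1 (0.43, adjusted p = 0.035), with no filter (adjusted p = 0.018) and by DESeq2 (adjusted p = 0.013).

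The genes whose pattern over the 13 group means was most like SLC30A1 were 4 metallothioneins and RNF165. Pearson's r over log2 CPM was 0.936 for MT1X, 0.915 for MT1G, 0.904 for MT2A, 0.903 for MT1E and 0.888 for RNF165, among 12261 genes searched. These are descriptions over 13 groups that share a cell line and a series of times, and near-identical metallothionein copies could have split or lost reads in counting. MT1X averaged 53.2 ± 3.9, 577 ± 23, 760 ± 3.4 and 511 ± 40 CPM in GSK-J4 at 1, 3, 6 and 24 h. It averaged 293 ± 24, 1272 ± 112, 1287 ± 134 and 1340 ± 164 CPM in ZnSO4, and 10.3 ± 4.3, 7.25 ± 1.15, 7.11 ± 0.74 and 18.3 ± 1.6 CPM in DMSO. MT2A averaged 13.6 ± 2.1, 281 ± 16, 499 ± 16 and 548 ± 26 CPM in GSK-J4, 83.4 ± 11.5, 705 ± 78, 950 ± 118 and 1045 ± 109 CPM in ZnSO4, and 3.10 ± 2.51, 2.27 ± 0.23, 1.55 ± 0.51 and 4.52 ± 2.25 CPM in DMSO at the same times. Both thus changed over a far wider range than SLC30A1, from a low start (7.40 ± 2.45 CPM for MT1X and 1.83 ± 0.98 CPM for MT2A at T0). The change of the GSK-J4 effect on MT1X between 3 and 6 h was 0.40 ± 0.27 (SE, adjusted p = 0.52, edgeR) and of the ZnSO4 effect on it 0.02 ± 0.27 (adjusted p = 0.99, edgeR), over the interval where both SLC30A1 effects fell. Between 6 and 24 h the GSK-J4 effect on MT1X changed by -1.93 ± 0.21 (adjusted p = 7.2e-10, edgeR), the direction of SLC30A1. The ZnSO4 effect on MT1X changed by -1.30 ± 0.22 over that interval (adjusted p = 0.00015, edgeR), where the change for SLC30A1 did not pass. Mean MT1X in DMSO went from 7.11 CPM at 6 h to 18.3 CPM at 24 h, so both changes include a rise of the vehicle. In ZnSO4 mean MT1X was 1287 CPM at 6 h and 1340 CPM at 24 h. Whether the change of SLC30A1 differs from that of MT1X was not tested. Among the other members, the r with SLC30A1 ran from -0.188 for SLC30A5 to 0.753 for SLC30A2, a gene with few or no counts in most groups.

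SLC30A2 (ENSG00000158014), which loads zinc into vesicles and is best known for supplying zinc to milk, was nearly silent without treatment and rose to a low level with both compounds. It passed the filter only through the ZnSO4 groups in which it is high. Its presence among the tested members, its p-values and its calls below are therefore no separate evidence of a rise. At 6 h it had 6, 4 and 4 counts in the GSK-J4 libraries and 31, 21 and 19 counts in the ZnSO4 libraries, against 0 counts in all DMSO libraries. At 3 h it had 6, 8 and 2 counts in GSK-J4 and 17, 21 and 26 counts in ZnSO4, against 0 counts in all DMSO libraries. At 24 h it had 3, 1 and 2 counts in GSK-J4 and 4, 9 and 6 counts in ZnSO4, against 2, 0 and 0 counts in DMSO. The ZnSO4 libraries of 3, 6 and 24 h therefore all lie above GSK-J4 and DMSO, and GSK-J4 overlaps DMSO only at 24 h among these times. At 1 h no GSK-J4 library had a count, the ZnSO4 libraries had 1, 3 and 3 counts and the DMSO libraries had 1 count together.

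With the 0 counts of the DMSO group set to a floor of 3 counts, SLC30A2 was 15.6-fold higher in ZnSO4 at 3 h and 27.5-fold higher at 6 h. In GSK-J4 it was 3.23-fold higher at 3 h and 5.04-fold higher at 6 h. These 4 figures take the counts of the treated groups as exact, so they are not lower limits of a 95% interval. At 24 h the ratio to DMSO was 15.3 for ZnSO4 (95% counting interval 3.68 to 135) and 3.88 for GSK-J4 (0.694 to 39.3). For this gene, kept by the filter through ZnSO4 groups alone, adjusted p for ZnSO4 over DMSO was 4.2e-08, 2.6e-10 and 0.00083 at 3, 6 and 24 h by edgeR's quasi-likelihood test. For GSK-J4 it was 0.025 at 3 h, 0.00088 at 6 h and 0.19 at 24 h by the same edgeR test. The GSK-J4 call of 3 h was lost without any 1 of the 3 DMSO libraries (adjusted p = 0.14, 0.13 and 0.088) and without GSK-J4 replicate 1 (0.075) or 2 (0.11). GSK-J4 held 0.207 of the ZnSO4 level at 3 h (0.112 to 0.362), 0.183 at 6 h (0.0955 to 0.328) and 0.254 at 24 h (0.0831 to 0.662), with adjusted p of 6.1e-05, 1.1e-05 and 0.023 in edgeR. The last of these calls was lost without ZnSO4 replicate 2 (adjusted p = 0.11), without GSK-J4 replicate 2 (0.099) or 3 (0.061) and with no filter (0.077).

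**Figure D3:**
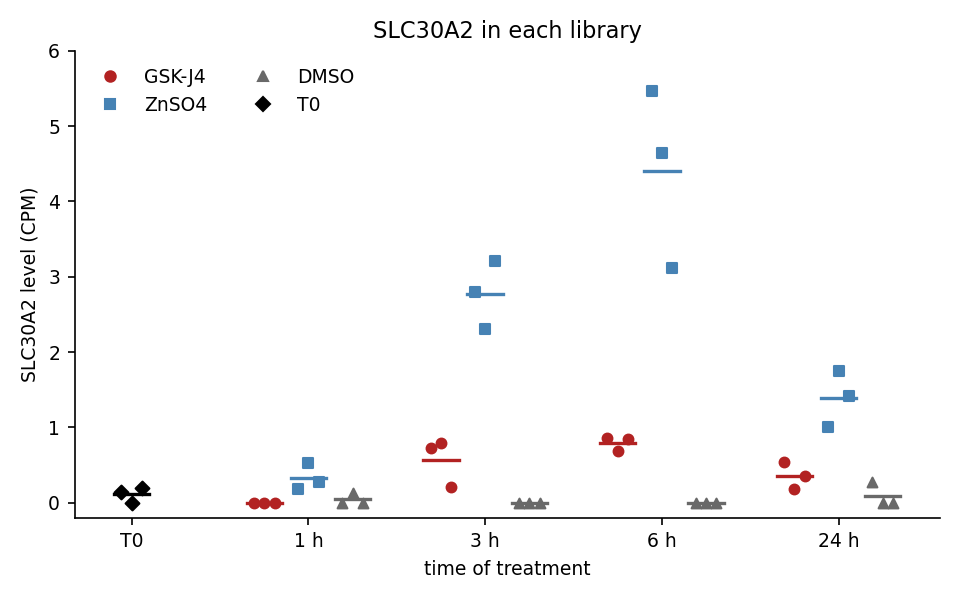
SLC30A2 level in CPM (vertical axis) in each library at T0 and after 1, 3, 6 and 24 h of GSK-J4, ZnSO4 or DMSO, with a bar at the mean of 3 libraries. ZnSO4 libraries reach 5.46 CPM at 6 h, GSK-J4 libraries stay at or under 0.859 CPM, and DMSO libraries at 3 and 6 h are at 0.

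The highest mean of SLC30A2 was in ZnSO4 at 6 h (4.41 ± 1.19 CPM), where SLC30A1 was at its lowest of the ZnSO4 times. The genes most like SLC30A2 over the 13 group means were SLCO2B1 (r = 0.955), PIF1 (0.939) and ATP6V0A2 (0.932). Outside ZnSO4 at 3, 6 and 24 h SLC30A2 had at most 16 counts per group, so these r rest mostly on those ZnSO4 groups.

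Counted over the family, few members other than these passed before 24 h. SLC30A2 is among the tested members only through its ZnSO4 groups, so its calls in these counts are no separate evidence. For GSK-J4 against DMSO at 1 h, SLC30A1 was the only member called of 7 tested, where 0.104% of all genes tested were called. At 3 h SLC30A1 and SLC30A2 were called with 2.38% of all genes called, and at 6 h the same pair with 20.4%. At 24 h SLC30A1, SLC30A5, SLC30A7 and SLC30A9 were higher and SLC30A3 lower, 5 of 7 called, with 32% of all genes called, and 3 were called without GSK-J4 replicate 3. For ZnSO4 against DMSO, SLC30A1 alone was called at 1 h (0.678% of all genes called), SLC30A1 and SLC30A2 at 3 h (10.8%) and 24 h (9.56%), and these with SLC30A9 at 6 h (9.32%). Between GSK-J4 and ZnSO4, 1, 2, 4 and 4 of 7 members were called at 1, 3, 6 and 24 h, with 0.664%, 10.1%, 18.4% and 24.5% of all genes called. Between DMSO and T0, 0, 1, 0 and 4 of 7 were called at 1, 3, 6 and 24 h, with 0.0346%, 0.0968%, 0.0138% and 63.2% of all genes called. SLC30A1 was 1 of the 14 genes called at 3 h. At the 0 counts of 1 h and 6 h, 1 member each had an unadjusted p under 0.05, and DESeq2 called 1 member at 1 h, where SLC30A1 alone received an adjusted p, and 0 at 6 h.

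**Figure D4:**
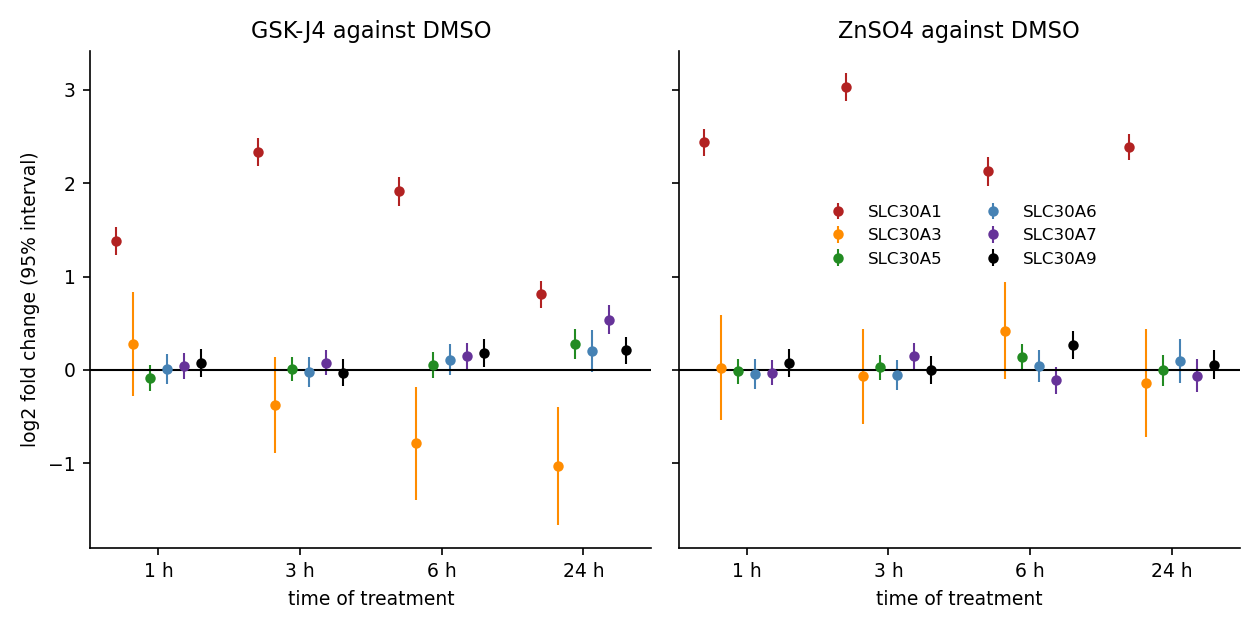
Log2 fold change over DMSO (vertical axis, with 95% intervals from the edgeR fit) of the 6 members with more than a few counts per library, for GSK-J4 (left) and ZnSO4 (right) at 1, 3, 6 and 24 h. SLC30A1 stands at 0.81 to 2.33 for GSK-J4 and at 2.13 to 3.03 for ZnSO4, while the other members shown lie between -1.03, SLC30A3 in GSK-J4 at 24 h, and 0.54, SLC30A7 in GSK-J4 at 24 h.

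SLC30A3 (ENSG00000115194), known for filling synaptic vesicles with zinc in neurons, was present at 1.41 to 5.97 CPM and was lower in GSK-J4 at 24 h. At 24 h it measured 1.80, 2.23 and 1.41 CPM in GSK-J4, against 5.30, 3.10 and 2.66 CPM in DMSO. These libraries do not overlap, though the first DMSO library lies well above the other two. The log2 fold change was -1.03 ± 0.32 (SE, adjusted p = 0.0083, edgeR), and it did not pass without DMSO replicate 1 (-0.69, adjusted p = 0.14) or GSK-J4 replicate 3 (-0.89, adjusted p = 0.055). At 6 h it measured 2.29, 2.07 and 2.33 CPM in GSK-J4, 3.88, 5.97 and 5.74 CPM in ZnSO4, and 4.12, 3.96 and 3.48 CPM in DMSO. Here GSK-J4 lies below both other groups without overlap. GSK-J4 was lower than ZnSO4 by a log2 fold change of -1.21 ± 0.29 (adjusted p = 0.0016, edgeR), and the difference from DMSO of -0.79 ± 0.30 did not pass (adjusted p = 0.055, edgeR). Over all 39 libraries SLC30A3 had 8 to 48 counts per library. The genes most like SLC30A3 were FHOD1 (r = 0.935), HILPDA (0.890) and PRXL2B (0.874).

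SLC30A5 (ENSG00000145740) and SLC30A6 (ENSG00000152683), partners in a complex of the early secretory pathway, and SLC30A7 (ENSG00000162695), which acts in the Golgi, supply zinc to enzymes made there. None of the 3 was called in DMSO against T0 up to 6 h, and all 24 h libraries of each lie below all its earlier libraries. SLC30A6 measured 19.1, 22.5 and 21.1 CPM in DMSO at 24 h, against 64.1, 57.1 and 48.9 CPM at T0. SLC30A5 measured 44.3, 44.7 and 39.9 CPM in DMSO at 24 h, against 83.0, 80.5 and 81.2 CPM at T0. SLC30A7 measured 45.8, 44.0 and 41.9 CPM in DMSO at 24 h, against 74.5, 79.4 and 83.8 CPM at T0. None of the 3 overlaps between DMSO at 24 h and T0. The log2 fold changes were -1.45 ± 0.09 (SE) for SLC30A6, -0.92 ± 0.07 for SLC30A5 and -0.84 ± 0.07 for SLC30A7, with adjusted p of 3.6e-21, 1.2e-17 and 1.2e-15 in edgeR's quasi-likelihood test. That comparison calls 63.2% of all genes, and scaling by library totals shifts its median over all genes to -0.24, so a call there is common.

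At 24 h GSK-J4 libraries held more SLC30A7 and SLC30A5 than DMSO libraries. SLC30A7 measured 64.5, 57.9 and 68.7 CPM in GSK-J4 and 38.02, 42.6 and 45.6 CPM in ZnSO4, against 45.8, 44.0 and 41.9 CPM in DMSO. GSK-J4 stands above both, while ZnSO4 overlaps DMSO. The log2 fold change was 0.54 ± 0.08 over DMSO (adjusted p = 1e-07, edgeR) and 0.60 ± 0.09 over ZnSO4 (adjusted p = 9.6e-08, edgeR). At 6 h SLC30A7 measured 95.3, 95.1 and 86.4 CPM in GSK-J4 and 78.1, 75.4 and 77.9 CPM in ZnSO4, and GSK-J4 was 0.26 ± 0.07 higher on the log2 scale (adjusted p = 0.0050, edgeR). The GSK-J4 effect on SLC30A7 was 0.39 ± 0.10 larger at 24 h than at 6 h (adjusted p = 0.014, edgeR), a call lost without GSK-J4 replicate 3 of 6 h (0.34, adjusted p = 0.053), DMSO replicate 3 of 24 h (0.35, 0.053) or GSK-J4 replicate 3 of 24 h (0.32, 0.084) and with no filter (0.35, 0.13).

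SLC30A5 measured 51.2, 51.7 and 53.7 CPM in GSK-J4 at 24 h and 38.8, 42.8 and 47.0 CPM in ZnSO4, against 44.3, 44.7 and 39.9 CPM in DMSO. GSK-J4 does not overlap either. The log2 fold change was 0.28 ± 0.08 over DMSO (adjusted p = 0.0041, edgeR) and 0.28 ± 0.09 over ZnSO4 (adjusted p = 0.0092, edgeR). The first was lost with no filter (0.23, adjusted p = 0.10), and the second with no filter (0.26, 0.089) and without ZnSO4 replicate 1 (0.21, 0.097). SLC30A6 measured 24.1, 22.6 and 25.6 CPM in GSK-J4 at 24 h, against 19.1, 22.5 and 21.1 CPM in DMSO, a log2 fold change of 0.20 ± 0.11 (95% interval -0.02 to 0.43) that did not pass (adjusted p = 0.16, edgeR) but passed after scaling by library totals (0.30, adjusted p = 0.035). ZnSO4 against DMSO gave no call for SLC30A5, SLC30A6 or SLC30A7 at any time, with log2 fold changes between -0.11 and 0.15.

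**Figure D5:**
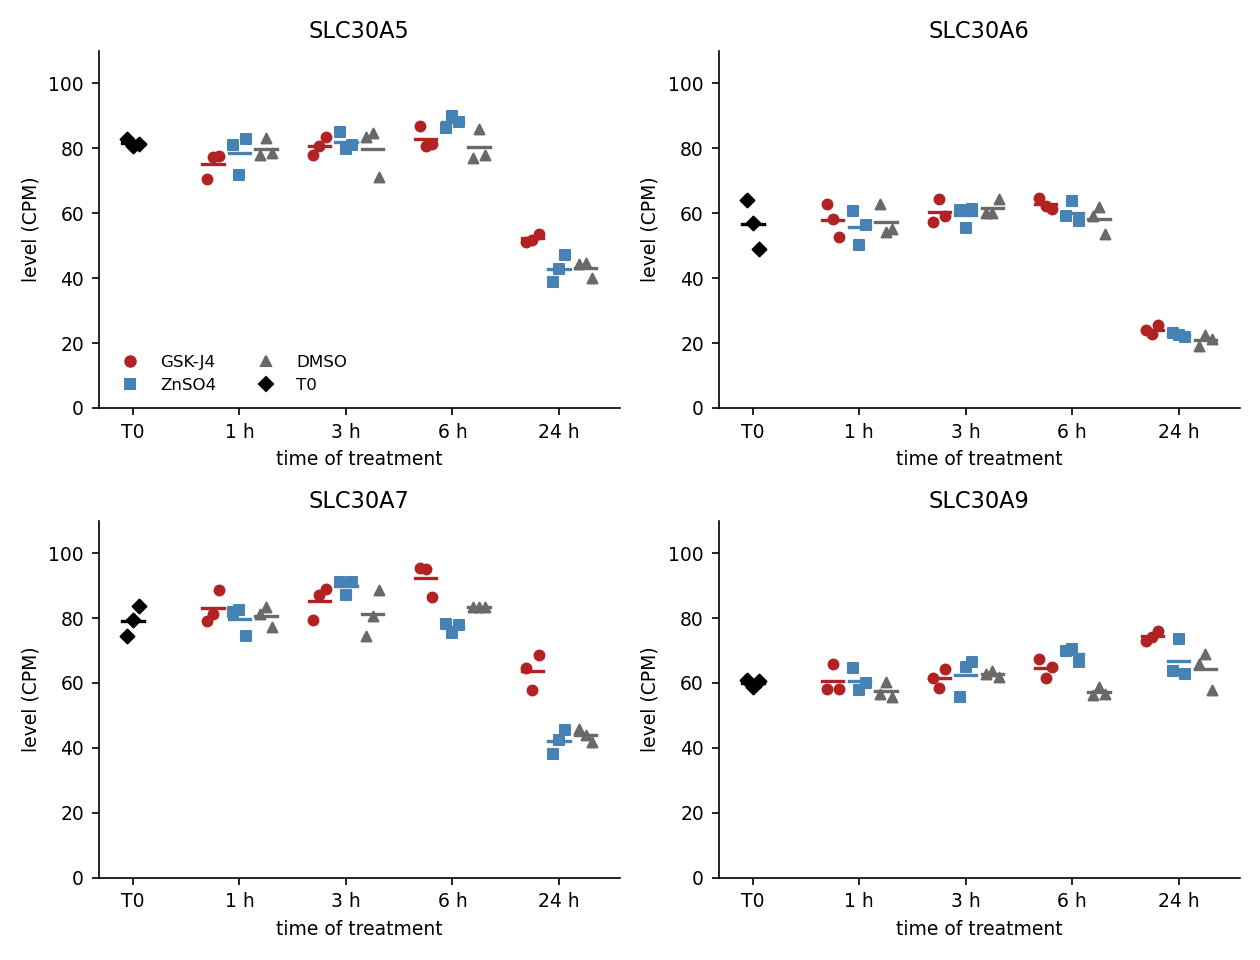
Level in CPM (vertical axes) of SLC30A5, SLC30A6, SLC30A7 and SLC30A9 in each library at T0 and after 1, 3, 6 and 24 h of GSK-J4, ZnSO4 or DMSO, with a bar at the mean of 3 libraries. SLC30A5, SLC30A6 and SLC30A7 are lower in all 24 h groups than before, SLC30A7 in GSK-J4 at 24 h lies above ZnSO4 and DMSO, and SLC30A9 stays between 55.6 and 76.1 CPM.

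Over the 13 group means SLC30A5 ran with SLC30A6 (r = 0.983) and SLC30A7 (r = 0.951), and SLC30A6 with SLC30A7 (r = 0.934). The points fall into 2 sets, the 24 h groups and the rest, so this r mostly restates the 24 h level. The genes most like SLC30A5 were HERC4 (r = 0.997), BBS10 and INSIG2 (both 0.996), those most like SLC30A6 were CREBZF, C17orf80 (both 0.998) and ENTPD1 (0.997), and those most like SLC30A7 were DCAF10 (0.988), CHSY1 and WDR27 (both 0.986).

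SLC30A9 (ENSG00000014824), linked to zinc export from mitochondria, varied least of the well-measured members, from 55.6 to 76.1 CPM over all 39 libraries. At 24 h it measured 72.8, 74.2 and 76.1 CPM in GSK-J4, against 65.9, 69.0 and 57.7 CPM in DMSO. At 6 h it measured 69.8, 70.6 and 66.4 CPM in ZnSO4, against 56.3, 58.7 and 56.5 CPM in DMSO. Neither pair overlaps. The log2 fold changes were 0.21 ± 0.07 for GSK-J4 at 24 h (adjusted p = 0.022, edgeR) and 0.27 ± 0.08 for ZnSO4 at 6 h (adjusted p = 0.014, edgeR). The first was lost without DMSO replicate 3 (0.13, adjusted p = 0.22), GSK-J4 replicate 2 (0.21, 0.053) or GSK-J4 replicate 3 (0.18, 0.092), and with no filter (0.16, 0.34). The second was lost without DMSO replicate 1 (0.26, adjusted p = 0.055) or 3 (0.26, 0.056), without ZnSO4 replicate 1 (0.26, 0.054) or 2 (0.25, 0.054), and with no filter (0.23, 0.16). DMSO at 24 h did not differ from T0 past the threshold (0.10 ± 0.07, 95% interval -0.04 to 0.25, adjusted p = 0.22, edgeR). The genes most like SLC30A9 were CDKN1A (r = 0.918), AL591135.1 (0.917) and PPP2R5C (0.911).

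The last 3 members were at the edge of detection. SLC30A4 (ENSG00000104154), a transporter of endosomal and Golgi membranes, had 114 counts over all libraries, 0 to 8 per library and at most 0.988 CPM. SLC30A8 (ENSG00000164756), the transporter of insulin granules in pancreatic beta cells, had 61 counts and at most 6 per library. SLC30A10 (ENSG00000196660), a manganese exporter, had 14 counts in all, in 12 of 39 libraries. SLC30A4 summed to 17 counts in ZnSO4 at 3 h, against 7 in DMSO, a ratio of 1.78 (95% counting interval 0.700 to 5.07), and its other ratios to DMSO had intervals that also include 1. SLC30A8 summed to 6 counts in GSK-J4 and 3 in ZnSO4 at 3 h, against 12 in DMSO, ratios of 0.303 (0.0931 to 0.871) and 0.183 (0.0331 to 0.678), with DMSO at 3 h itself 4.69 times T0 (1.27 to 25.9; 3 counts at T0). Those intervals cover counting error only, and the 3 h DMSO group is the high value in both. Counts this low leave intervals this wide, and differences within them were not detectable at this depth.

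The other zinc genes are set beside the exporters here. The shares of all genes called, against which each list is read, were 0.104%, 2.38%, 20.4% and 32% at 1, 3, 6 and 24 h for GSK-J4 over DMSO and 0.678%, 10.8%, 9.32% and 9.56% for ZnSO4 over DMSO. Of 11 metallothioneins 8 passed the filter, some through treated groups alone, and the calls of those over DMSO are no separate evidence of a rise. Of the 8, GSK-J4 raised 3, 7, 8 and 8 at 1, 3, 6 and 24 h. ZnSO4 raised 7, 8, 8 and 8, and neither lowered any. All 8 were lower in GSK-J4 than in ZnSO4 at 3, 6 and 24 h, and 6 were at 1 h. At 24 h MT1X stood at a log2 fold change of -1.39 ± 0.08 (SE) between GSK-J4 and ZnSO4 (adjusted p = 9.7e-23, edgeR), beside -1.58 for SLC30A1. MTF1, the factor itself, averaged 45.2 ± 0.90 CPM in GSK-J4 and 46.3 ± 2.7 CPM in ZnSO4 at 3 h, against 50.4 ± 3.5 CPM in DMSO, and was not called in any of the 8 comparisons with DMSO (edgeR, smallest adjusted p 0.077 at GSK-J4, 24 h).

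Among 14 SLC39 importers, 11 passed the filter. At 1, 3, 6 and 24 h of GSK-J4 the numbers that rose were 0, 0, 2 and 4, and the numbers that fell were 0, 1, 3 and 2. Of the same genes ZnSO4 raised 0 and lowered 1, 2, 4 and 3. At 6 and 24 h of GSK-J4, where 20.4% and 32% of all genes were called, 5 and 6 of the 11 were called, and for ZnSO4, with 9.32% and 9.56% called, 4 and 3. The SLC39 median log2 fold change at 6 h was -0.17 for ZnSO4, beside 0.01 over all genes tested. SLC39A10, an importer at the cell surface, averaged 13.4 ± 0.53 CPM in GSK-J4 and 10.8 ± 0.74 CPM in ZnSO4 at 3 h, against 24.1 ± 2.7 CPM in DMSO. It fell by 0.83 ± 0.11 (adjusted p = 1.5e-07, edgeR) and by 1.14 ± 0.12 (adjusted p = 2.9e-11, edgeR) on the log2 scale. SLC39A10 thus moved opposite to SLC30A1 at 3 h with both compounds. At other times of GSK-J4 this did not hold throughout. It averaged 29.2 ± 1.9 CPM in GSK-J4 at 1 h, against 27.2 ± 2.5 CPM in DMSO (0.11 ± 0.10, adjusted p = 1, edgeR), and was lower at 6 h (-0.46 ± 0.11, adjusted p = 0.0013, edgeR). At the last time, 24 h, it averaged 12.9 ± 0.35 CPM in GSK-J4, against 9.72 ± 0.44 CPM in DMSO, on the same side of DMSO as SLC30A1. The test of that 24 h difference is not given here. The GSK-J4 effect on SLC39A10 was 0.87 ± 0.18 higher at 24 h than at 6 h (adjusted p = 0.00069, edgeR), which by itself does not test a rise over DMSO at 24 h. With ZnSO4 SLC39A10 was also lower at 1, 6 and 24 h, by log2 fold changes of -0.54 ± 0.11, -1.28 ± 0.12 and -1.04 ± 0.19 (adjusted p of 0.0013, 3.5e-12 and 6.1e-05 in edgeR).

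Set beside SLC30A5, SLC30A6 and SLC30A7 are genes of the compartments they serve. Of 12 Golgi residents all passed the filter, and 7 rose and 1 fell in DMSO at 24 h against T0, near the 63.2% of all genes called there, with a median log2 fold change of 0.30 beside -0.02 over all genes tested. GORASP2, a Golgi stacking protein, averaged 228 ± 5.6 CPM in DMSO at 24 h, against 112 ± 3.8 CPM at T0 (log2 fold change 1.02 ± 0.05 SE, adjusted p = 1.2e-25, edgeR). In GSK-J4 against DMSO at 24 h, where 32% of all genes were called, 6 Golgi residents rose and 2 fell. Among those that rose was GOLGB1, a tethering protein, at 256 ± 0.15 against 169 ± 8.5 CPM (0.60 ± 0.06, adjusted p = 1e-12, edgeR). Of 13 proteins that take zinc in the secretory pathway 9 passed, and 3 rose and 0 fell in GSK-J4 against DMSO at 24 h, namely ADAM17, PIGO and SMPD1, a share near the 32% of all genes called. In ZnSO4 against DMSO at 24 h 1 rose and 2 fell, with 9.56% of all genes called, and in DMSO at 24 h against T0 2 rose and 4 fell, with 63.2% called. PIGO, an enzyme of membrane anchor synthesis, averaged 25.3 ± 2.7 CPM in GSK-J4 at 24 h, against 18.1 ± 0.35 CPM in DMSO (0.49 ± 0.12, adjusted p = 0.00098, edgeR). Of 18 transporters of other metals 15 passed, of which GSK-J4 raised 0, 0, 1 and 2 and lowered 0, 0, 0 and 1 at 1, 3, 6 and 24 h, while ZnSO4 raised 0, 1, 1 and 0 and lowered 0, 0, 1 and 2. Of the 4 other zinc-handling genes that passed, none was called with ZnSO4, and in GSK-J4 at 24 h AP3D1 rose (0.17 ± 0.06, adjusted p = 0.016, edgeR) and ZNG1A fell (-0.28 ± 0.10, adjusted p = 0.022, edgeR).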

How the data were processed

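RNA was measured in 39 libraries, 13 groups of 3, taken from the treatment and time in the sample labels. The 1 h groups rest on the sample labels alone, since the protocol text lists just the later times. The deposited table holds the authors' raw counts per gene, as whole numbers. Reads were aligned with HISAT2 2.1.0 to hg19, per the submitters' processing notes, whereas how reads were assigned to genes, with which annotation and strand setting, is not stated by the sources at hand. Without strand, antisense reads cannot be told apart: exons of an antisense gene cover 9.20% of those of SLC30A5 and at most 2.66% of those of any other member. Symbols came from a name table for 39538 identifiers and from GENCODE 29 for 12800, and 5435 have none.

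All libraries were fitted in 1 model with edgeR 4.0.16 in R 4.3.3 (TMM, a filterByExpr minimum of 10, quasi-likelihood F-tests, Benjamini-Hochberg within each of 22 comparisons, threshold 0.05), leaving 14460 genes and 26 residual degrees of freedom. The SE is the size of the log2 fold change over the square root of F. Correlations of group means use log2 CPM with a prior count of 2, among tested genes with a symbol and an average of at least 1. For SLC30A2, SLC30A4, SLC30A8 and SLC30A10, no fold was given where both groups held 3 counts or fewer. Otherwise 0 counts in a group were set to 3 counts, with the count of the other group taken as exact. Any other pair gave a ratio with an exact 95% interval, for counting error only. Replicates differed beyond counting noise in every pair (chi-squared per gene 1.21 to 7.38). Counts were also simulated for GSK-J4 and DMSO at 6 h, fitted alone over 12841 genes, with changes planted in 200 genes that were not low in DMSO. Recovery was 85% of 60 genes at 1.5-fold, 93.2% of 73 at 2-fold and 100% of 67 at 4-fold, and 11 of 197 calls were false. The reported fit of all libraries, which called 2947 genes in this comparison, was not simulated. These figures therefore do not cover it, nor a gene as low as SLC30A2.

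Named are all 10 members, up to 4 genes of each other list by smallest p in a comparison, MT1X and MT2A beside SLC30A1, MTF1 (named for its role), and the 5 genes most like SLC30A1 or 3 most like another member. The members and lists were chosen with earlier results of these data known. Alternatives were RLE factors, library totals, no filter, DESeq2 1.42.0, fits of only the groups compared, and leaving out each library. Promoters are from RefSeq on GRCh38.p14, another build than the alignment. A comparison of the proteins was planned and not made.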

Additional observations from a re-analysis of the deposited data

Results flagged for a closer look

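Each result here is a change in a compound's log2 fold change over DMSO between neighbouring times that passed edgeR's quasi-likelihood test (adjusted p under 0.05), and their causes were not tested. For SLC30A1 the GSK-J4 effect changed by 0.95 between 1 and 3 h, by -0.42 between 3 and 6 h and by -1.10 (-1.105) between 6 and 24 h. Over that last interval mean SLC30A1 went from 233 to 199 CPM in GSK-J4 and from 61.7 to 114 CPM in DMSO. For SLC30A1 the ZnSO4 effect changed by 0.59 between 1 and 3 h and by -0.90 between 3 and 6 h. For SLC30A7 the GSK-J4 effect changed by 0.39 between 6 and 24 h. In these comparisons 0.588%, 3.67% and 5.75% of all genes passed for GSK-J4 in order of time, and 2.77% and 2.18% for ZnSO4. Groups of 3 libraries were not searched for single outlying values.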

How the results depend on the processing

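No paired analysis was possible because the labels carry no replicate numbers shared between groups. SLC30A1 kept its direction and its call in all 8 comparisons with DMSO and in GSK-J4 against ZnSO4 at 1, 3 and 24 h, under RLE factors, library totals, no filter, DESeq2, fits of only the groups compared, and leaving out each library. In GSK-J4 against ZnSO4 at 6 h its log2 fold change was -0.191 with no filter and -0.267 to -0.145 without single libraries. No called log2 fold change of a member changed sign under these alternatives.

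The number of members called for GSK-J4 against DMSO at 3 h was 2, but 1 with no filter and 1 to 2 without single libraries. At 6 h it was 2, but 4 by library totals and 2 of 6 members in a fit of only these groups, where SLC30A2 had no value and SLC30A3 was called. At 24 h it was 5, but 3 with no filter, up to 6 under other settings and 3 to 5 without single libraries. For GSK-J4 against ZnSO4 at 24 h it was 4, but 2 with no filter, up to 5 under other settings and 3 to 4 without single libraries. For DMSO against T0 it was 0 at 1 h, but 1 with no filter, 1 by DESeq2 and 0 to 1 without single libraries, and 1 at 3 h, but 0 in a fit of only these groups and 0 to 1 without single libraries. For the change of the GSK-J4 effect it was 1 between 3 and 6 h, but 0 to 1 without single libraries, and 2 between 6 and 24 h, but 1 with no filter and 1 to 2 without single libraries. DESeq2 gave SLC30A2 an adjusted p only in DMSO at 24 h against T0.

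Over all genes, fits of only the groups compared called 1072 against 344 for GSK-J4 at 3 h, and 173 against 85 and 920 against 530 for the change of its effect from 1 to 3 h and from 3 to 6 h. ZnSO4 against DMSO called 1348 at 6 h and 1382 at 24 h, but 876 without ZnSO4 replicate 3 and 809 without ZnSO4 replicate 2, and the change of its effect from 6 to 24 h called 59, but 37 without the same 24 h library and 39 without DMSO replicate 2 of 6 h. DMSO against T0 called 5, 14 and 2 genes at 1, 3 and 6 h, against 31, 78 and 60 with no filter, 13, 80 and 17 by DESeq2, 0 in fits of only these groups, and 1 to 58, 1 to 703 and 0 to 801 without single libraries, the highest without T0 replicate 2, 1 and 1; at 1 h RLE and library totals gave 0, and at 6 h library totals gave 0. Library totals moved the median of all genes to 0.114 for GSK-J4 at 24 h and to -0.239 for DMSO at 24 h against T0. They also moved the share of calls that were higher, in several comparisons across an even split, to 61.6% against 48.3% by TMM for GSK-J4 at 6 h, 68.1% against 47.6% at 24 h, 44.5% against 61.3% for ZnSO4 at 3 h, 66.6%, 56.4% and 66.6% against 39.5%, 46.3% and 48.9% for GSK-J4 over ZnSO4 at 3, 6 and 24 h, and 29.8% against 48.2% for DMSO at 24 h over T0. For the change of effect they moved it to 65.3% against 47.2% for GSK-J4 from 6 to 24 h and to 47.2% against 28.6% for ZnSO4 from 3 to 6 h, and DESeq2 to 41.7% against 27.1% for ZnSO4 from 6 to 24 h and 92.3% against 80.0% for DMSO at 1 h over T0. Where no cause is named, it was not tested.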
